A study of Homo sapiens with 2 samples.

Results

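Transcription of 8 HOX genes was described in nascent RNA of BJ cells, an established human foreskin fibroblast line. They are 8 of the 38 human HOX genes analysed here and 8 of the 12353 genes in the deposited table: HOXA2, HOXA7, HOXA9, HOXA10 and HOXA11 from the HOXA cluster, HOXC6 from the HOXC cluster, and HOXD8 and HOXD11 from the HOXD cluster. They were taken from a list drawn up with earlier results of these data known, and they include the 3 highest and the lowest measured gene of the paralog groups 1 to 8 and of the groups 9 to 13, so their order of levels is a description and no test is made of it. All 8 have a value in both libraries. The cells were untreated, grew in medium with 10% heat-inactivated fetal calf serum, and gave 2 libraries from separate biological replicates, called library a and library b, which form 1 group. Transcription was measured by GRO-seq, in which polymerases engaged on a gene in isolated nuclei extend their RNA for 5 min at 30 °C with a brominated nucleotide, and the labelled RNA is captured and sequenced. Values are FPKM, fragments per kilobase of gene scaled to library size, and report engaged polymerase rather than mature mRNA. Each value is given with its SD over the 2 libraries (n = 2).

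HOX genes encode homeodomain transcription factors that give cells their address along the body axes and the limbs. They lie in 4 clusters, HOXA to HOXD, and genes at corresponding places in different clusters are paralogs and carry the same number. Genes with low numbers, at the 3-prime end of a cluster, are used in anterior and proximal tissue, and genes with high numbers, at the 5-prime end, in posterior, distal and genital tissue. Adult skin fibroblasts keep much of this pattern in culture, held in place by Polycomb repression of the silent genes and trithorax-type activation of the others, so their HOX genes record the place on the body that the cells came from.

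The sequences just upstream of the members are shown because either of the related letters TCACGTG and TCATGTG stands there in members of high and of low level. RefSeq windows of 250 bases upstream of the annotated start on GRCh38.p14 were found for 7 of the 8 members, all but HOXC6, and HOXA10 has 2 of them. Each sequence is printed 5-prime to 3-prime on the strand of its gene, in lower case. HOXA11 and HOXD11 are the highest and the lowest of the members of paralog groups 9 to 11, and HOXA9 is the second highest member. Capitals in these 3 sequences mark TCACGTG or TCATGTG on either strand, which are forms of the E-box bound by helix-loop-helix factors, TATAAA, the core of the TATA box, and ATCAATCA, the letters of a composite site for HOX and PBX proteins.
HOXA11 (chr7:27185233-27185482, minus strand): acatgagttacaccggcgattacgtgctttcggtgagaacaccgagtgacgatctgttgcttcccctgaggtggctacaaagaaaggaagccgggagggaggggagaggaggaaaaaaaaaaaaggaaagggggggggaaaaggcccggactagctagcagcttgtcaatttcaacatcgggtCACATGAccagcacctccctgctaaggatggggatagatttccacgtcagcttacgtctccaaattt
HOXD11 (chr2:176107030-176107279, plus strand): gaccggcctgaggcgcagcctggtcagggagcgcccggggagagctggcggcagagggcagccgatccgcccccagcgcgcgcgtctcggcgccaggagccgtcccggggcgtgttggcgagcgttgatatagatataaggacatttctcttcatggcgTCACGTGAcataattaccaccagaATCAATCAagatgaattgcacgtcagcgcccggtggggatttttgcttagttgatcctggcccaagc
HOXA9 (chr7:27165538-27165787, minus strand): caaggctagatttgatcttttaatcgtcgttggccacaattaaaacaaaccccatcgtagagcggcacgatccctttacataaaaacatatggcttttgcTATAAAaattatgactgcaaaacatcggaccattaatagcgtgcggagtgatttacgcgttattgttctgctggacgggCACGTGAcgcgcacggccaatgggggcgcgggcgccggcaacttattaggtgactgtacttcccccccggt

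Windows of 29 bases around the E-box letters show the 5 members that hold them, with the 7 matching letters in capitals.
HOXA2 (chr7:27102718-27102746, minus strand): ggcagaagcaaTCATGTGacagccaattc
HOXA7 (chr7:27156676-27156704, minus strand): ggcggaggcggTCATGTGggcggtcacgt
HOXA9 (chr7:27165591-27165619, minus strand): tgctggacgggCACGTGAcgcgcacggcc
HOXA11 (chr7:27185282-27185310, minus strand): caacatcgggtCACATGAccagcacctcc
HOXD11 (chr2:176107178-176107206, plus strand): tcttcatggcgTCACGTGacataattacc

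TCACGTG or TCATGTG on either strand was in the windows of 5 of the 7 members and in 5.75% of all 35116 upstream windows of the same length (6.10% of those of genes with a value in the table). It starts between 18 bases (HOXA7) and 91 bases (HOXD11) upstream of the annotated start. ATCAATCA was in the windows of HOXA2 and HOXD11 and in 0.416% of all windows (0.227% of those of genes with a value). These letters were chosen after the sequences had been read, so their share among the members supports nothing. TATAAA was in the HOXA9 window and in both HOXA10 windows, against 10.7% of all windows and 6.06% of the windows of genes with a value in the table. GGGCGG, the GC box, was in the HOXA7 and HOXD11 windows, against 42.6% and 62.7%. The windows of the members held a median of 21.5 CG dinucleotides, where all windows held 11 and the windows of genes with a value in the table held 20. HOXA2 had the fewest, 8, followed by HOXA11 with 11, and HOXA7 and HOXD8 had the most, 28 each. HOXA11 and HOXD11, which differ most in level within a paralog group, do not hold the same form. TCATGTG stands upstream of HOXA11 and TCACGTG upstream of HOXD11, so they match only when both forms are pooled. The matches describe letters and not bound sites.

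The depth behind the values is unknown, because only FPKM was deposited, so no counting interval can be given. No gene of the table stands at 0, and a HOX gene outside it is described only as having no value. All 15 fibroblast markers had a value, among them the collagen gene COL1A1, VIM and THY1. They ran from a mean FPKM of 7.34 (DCN) to 649 (COL1A1), and 13 of the 15 lay above the median gene of the table. Their summed FPKM, to which COL1A1 and VIM (539) gave most, was 2133 (library a) and 2035 (library b). KRT10 (38.2) and PMEL (22.4), named below, stood above DCN, and the lists differ in length, so their sums are not like for like. None of 5 endothelial and none of 5 leukocyte markers had a value. Of 7 keratinocyte markers KRT10 and CDH1 did, with a sum of 42.4 (library a) and 37.0 (library b), and the basal keratins KRT5 and KRT14 did not. Of 5 melanocyte markers PMEL, MITF and MLANA did, with a sum of 38.9 and 34.8, and TYR and DCT did not. The part of such cells in the HOX values was not tested. In these bulk libraries fewer transcribing cells and less transcription per cell cannot be told apart.

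Within the HOXA cluster, nascent RNA was low at the 3-prime end and high at the 5-prime end. HOXA2, the only member from the 3-prime end and a gene of hindbrain and neural crest patterning, had values of 10.90 (library a) and 8.64 (library b), a mean of 9.77 ± 1.60, below the median gene of the table, which was at 11.7. HOXA7, a gene of trunk identity in the middle of the cluster, stood at 14.37 and 15.09 (14.7 ± 0.509). The 2 genes did not overlap between libraries: HOXA7 was 1.32 times HOXA2 in library a and 1.74 times HOXA2 in library b. The genes between them were HOXA3, HOXA4, HOXA5 and HOXA6, and none of the 4 had a value.

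From HOXA9 on the level was higher. This gene, at the start of the stretch of genes related to fly Abdominal-B and known also as a leukaemia gene, reached 34.80 in library a and 39.46 in library b, or 37.1 ± 3.30. That was 2.51 times HOXA7, with a log2 ratio of 1.33 ± 0.0783 over the libraries. HOXA10, which acts in the limb and the reproductive tract, was lower, at 26.41 and 28.14 (27.3 ± 1.22), and HOXA9 exceeded it 1.36-fold in a log2 ratio of 0.44 ± 0.0634. HOXA11, a gene of the forearm and the reproductive tract, was the highest HOX gene measured, at 60.95 and 66.01 (63.5 ± 3.58). It stood 2.32-fold above HOXA10, and this ratio was nearly the same in both libraries, 2.30 and 2.34. The step from HOXA10 to HOXA11 was thus far larger than the spread between libraries, and the smaller dip from HOXA9 to HOXA10 also exceeded it. That spread does not cover the unknown gene lengths or the readthrough transcript that spans HOXA9 and HOXA10.

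HOXA11 was 5.43 times the median gene and lay at percentile 95.2 of all genes in the table. HOXA9 lay at percentile 88.5 and HOXA10 at 81.3, whereas HOXA7 was at 59.8 and HOXA2 at 41.8. HOXA11 was 5.55 times HOXA2 in one library (a) and 7.56 times in the other (b). The median of HOXA9, HOXA10 and HOXA11 exceeded that of HOXA2 and HOXA7 by 1.62 ± 0.220 log2 units, a 3.08-fold difference. It follows in part from the choice of members, which include the highest measured genes of groups 9 to 13. Over all measured HOXA genes the median FPKM was 32.2 for groups 9 to 13 and 12.25 for groups 1 to 8. One more HOXA gene had a value: HOXA13, the last gene at the 5-prime end, which patterns digits and the external genitalia, stood at 26.48 and 25.01 (25.7 ± 1.04). It was 2.46-fold below HOXA11 and overlapped HOXA10 between libraries. Levels along the cluster therefore peaked at HOXA11 and did not climb to its end.

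**Figure D1:**
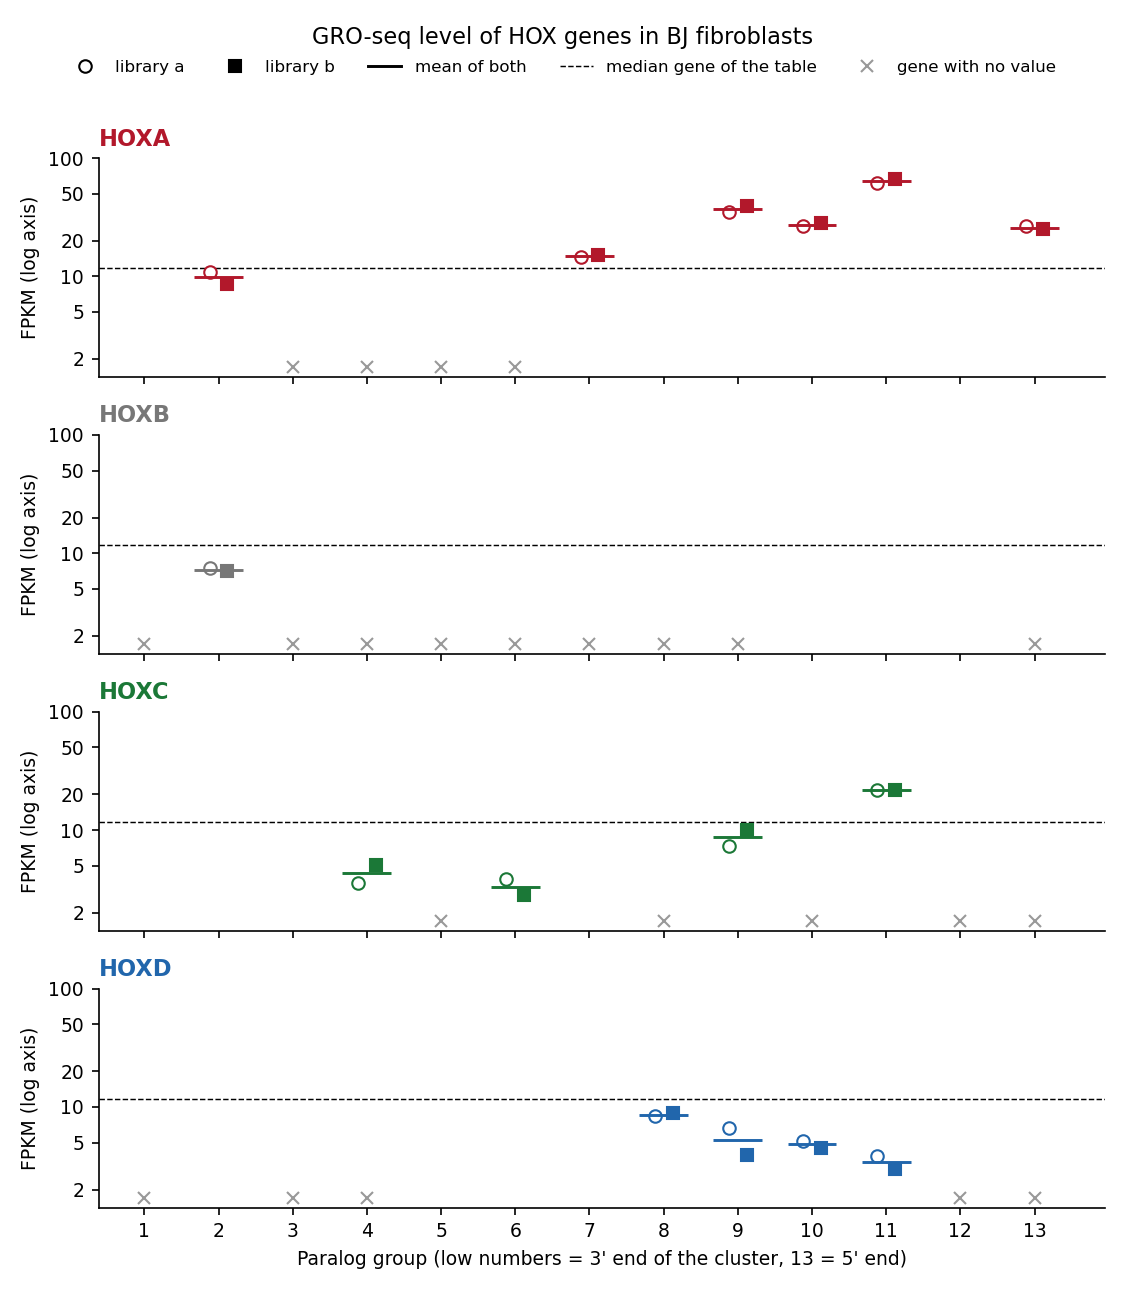
FPKM (log axis) of the 38 HOX genes by paralog group, in 1 panel per cluster, with library a as open circles, library b as filled squares, a bar for their mean, a dashed line for the median gene (11.7) and crosses for genes with no value. The HOXA genes from group 9 to group 13 all lie between 25.01 and 66.01, above the median gene, while the 4 measured HOXD genes lie at or below 8.82.

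The members from the other clusters stood lower. HOXD8, the most 3-prime of the measured HOXD genes, had 8.35 and 8.82 in libraries a and b (8.59 ± 0.332). HOXD11, a limb and axial patterning gene that acts together with HOXA11 in forearm and kidney, was at 3.87 and 2.97 (3.42 ± 0.636). HOXD8 was thus 2.49-fold above HOXD11 (log2 ratio 1.31 ± 0.317), and the libraries did not overlap. Of these HOXD members the more 3-prime gene was the higher, whereas within HOXA the more 5-prime HOXA11 stood above HOXA2. The direction within HOXD follows in part from the choice of members. HOXD11 is the lowest measured gene of the high-numbered paralog groups, and HOXD8 is among the 3 highest of the low-numbered ones. HOXD1, HOXD3 and HOXD4, on the 3-prime side of HOXD8, had no value. HOXC6, a trunk gene and the lowest of the 8, was at 3.85 and 2.80 (3.33 ± 0.742). HOXC6 and HOXD11 overlapped and could not be ordered. All 3 lay below the median gene, at percentiles 36.5 (HOXD8), 10.4 (HOXD11) and 9.86 (HOXC6) of all genes.

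The median of the 5 HOXA members exceeded that of HOXC6, HOXD8 and HOXD11 by 2.97 ± 0.327 log2 units, a 7.84-fold difference, or 2.41 log2 units (5.30-fold) with means in place of medians. Of the members outside HOXA, HOXC6 and HOXD11 are the lowest measured HOX genes, so this difference follows in part from the choice of members. Over all measured genes of each cluster the median FPKM was 26.5 for the 6 HOXA genes, 6.50 for the 4 HOXC genes and 5.07 for the 4 HOXD genes. HOXA2 and HOXD8 overlapped between libraries, since HOXA2 was 1.30 times HOXD8 in library a and 0.980 times in library b, so not every HOXA member stood above those of the other clusters. In order of level the 8 ran HOXA11, HOXA9, HOXA10, HOXA7, HOXA2, HOXD8, HOXD11 and HOXC6. Of the 7 neighbouring steps in this order 5 had libraries that did not overlap, the exceptions being HOXA2 to HOXD8 and HOXD11 to HOXC6. Over all 15 measured HOX genes 7 of 14 such steps did not overlap, so the count depends on which genes are members. Of the 8, 4 stood above the median gene, against 50% of all genes, and the median of the 8 was 12.25 where that of all genes was 11.7. Over all 15 measured HOX genes the median was 8.69, and 6 of them stood above the median gene. The share of the 8 above the median gene is that of all genes, and since the 8 include the highest and lowest of their family, neither it nor their 19.1-fold spread from HOXC6 to HOXA11 says anything of HOX genes as a set.

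The HOXD8 value may be read with the other measured HOXD genes, which lie between it and HOXD11. HOXD9 had 6.67 and 3.94 (5.31 ± 1.93), and HOXD10 at 5.17 and 4.49 (4.83 ± 0.481). These 2 overlapped, whereas HOXD9 lay below HOXD8 and HOXD11 below HOXD10 in both libraries. Along the HOXD cluster the mean FPKM was thus lower at each gene from HOXD8 to HOXD11, with the step from HOXD9 to HOXD10 inside the spread. Among the measured HOXC genes the level rose from HOXC6 through HOXC9 to HOXC11. HOXC8, HOXC10, HOXC12 and HOXC13 had no value, so the 5-prime end of this cluster was not seen. HOXC4 was at 3.55 and 5.07 (4.31 ± 1.07) and overlapped HOXC6. HOXC9 was at 7.32 and 10.06 (8.69 ± 1.94), 2.57-fold above HOXC6. HOXC11 was at 21.62 and 21.80 (21.7 ± 0.127), the only HOX gene outside the HOXA cluster above the median gene. HOXC6 thus belonged to the low 3-prime part of the measured HOXC genes, and HOXD11 was the lowest and most 5-prime of the measured HOXD genes. HOXD1, HOXD3, HOXD4, HOXD12 and HOXD13 had no value, so neither end of the HOXD cluster was seen.

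Paralogs allow the clusters to be set side by side at the same place. In group 11, HOXA11 exceeded HOXD11 15.4-fold (library a) and 21.5-fold (library b), a log2 ratio of 4.19 ± 0.343, and HOXC11 stood between them, 2.91-fold below HOXA11. In group 9, HOXA9 was 4.28-fold above HOXC9 (log2 ratio 2.10 ± 0.193) and 7.10-fold above HOXD9 (2.83 ± 0.655). In group 10, HOXA10 was 5.56-fold above HOXD10 (2.48 ± 0.205). In all 5 of these comparisons of a HOXA member with a HOXC or HOXD paralog the libraries did not overlap, as in all 8 pairs of measured paralogs. The share of gene pairs at large without overlap was not computed, so these counts say nothing particular of paralogs. The HOXA gene was the highest of each of these groups. The members include the highest measured genes of groups 9 to 13, HOXA9, HOXA10 and HOXA11, and the lowest, HOXD11. The top places and the wide gap from HOXA11 to HOXD11 therefore follow from the choice of members. In group 2, HOXA2 was 1.34-fold above HOXB2 (log2 ratio 0.42 ± 0.178), again without overlap. HOXA7, HOXC6 and HOXD8 had no measured paralog. Differences in FPKM between genes depend on the length each count was divided by, which the sources used here do not give.

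**Figure D2:**
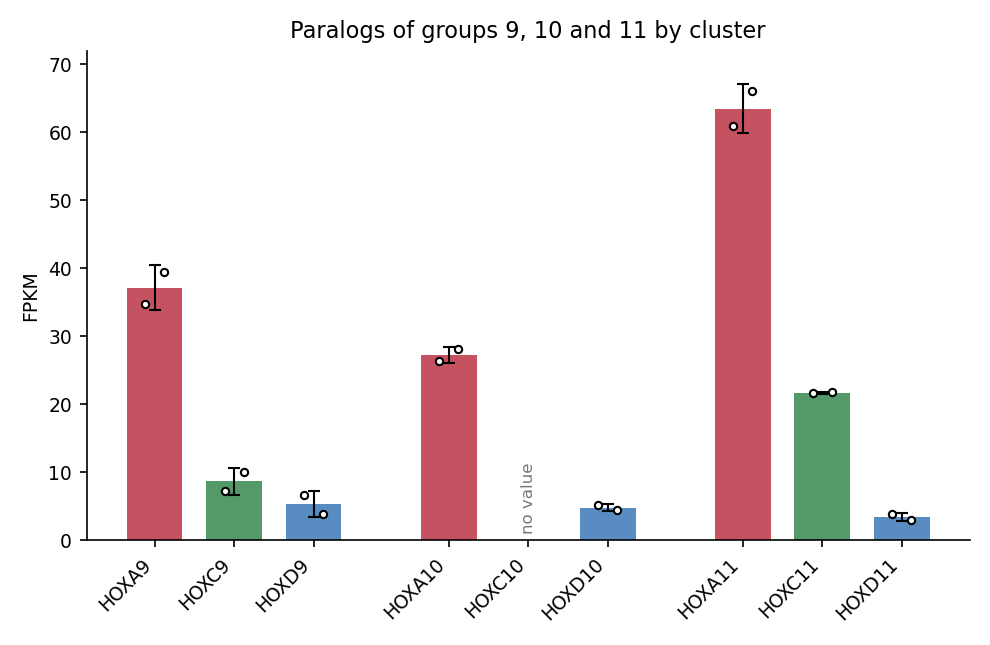
Bars give the mean FPKM of the HOXA, HOXC and HOXD genes of paralog groups 9, 10 and 11, with error bars for the SD over the 2 libraries and open points for each library. HOXA9, HOXA10 and HOXA11 (37.1, 27.3 and 63.5) stand above each measured paralog, the highest of which is HOXC11 at 21.7, and HOXC10 has no value.

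Of the 38 HOX genes analysed 15 had a value (39.5%), against 59.8% of the 20052 RefSeq protein-coding genes. The HOXA cluster had values for 6 of 10 genes, HOXC for 4 of 9, HOXD for 4 of 9 and HOXB for 1 of 10. The single HOXB gene was HOXB2 (7.24 ± 0.290), from the 3-prime end. Genes without a value were HOXA3, HOXA4, HOXA5 and HOXA6 in the HOXA cluster, and HOXB1, HOXB3, HOXB4, HOXB5, HOXB6, HOXB7, HOXB8, HOXB9 and HOXB13 in the HOXB cluster. In the HOXC cluster they were HOXC5, HOXC8, HOXC10, HOXC12 and HOXC13, and in the HOXD cluster HOXD1, HOXD3, HOXD4, HOXD12 and HOXD13. By place, 9 of the 16 genes of groups 9 to 13 had a value and 6 of the 22 genes of groups 1 to 8. In the HOXA cluster these counts were 4 of 4 and 2 of 6. The 6 HOXA genes held, of the summed FPKM of the 15 HOX genes, 71.9% (library a) and 73.1% (library b), and HOXA9, HOXA10 and HOXA11 alone held 50.5% and 53.6%. A share of summed FPKM is not a share of reads.

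HOX genes lie close together, and some share transcribed sequence. HOXA9 and HOXA10 lie within the span of the HOXA10-HOXA9 readthrough transcript of RefSeq, HOXC6 lies in the span it shares with HOXC4 and HOXC5, and HOXA7, HOXA10 and HOXD8 overlap the noncoding genes HOXA-AS3, HOXA10-AS and LOC100129455. Outside the 8, HOXC11 overlaps HOTAIR, HOXB2 overlaps HOXB-AS1 and HOXC4 overlaps HOXC5 and HOXC6. The sources used here do not say how reads in shared stretches were counted or whether strand was used, so the values of these genes are uncertain to that extent. HOXA11, HOXA2 and HOXD11 overlapped no other RefSeq gene on GRCh38. The reads were counted with another annotation, on hg19, and overlaps in that annotation were not checked. Among the 23 HOX genes without a value 9 overlapped another protein-coding gene (39.1%), among them HOXA3 to HOXA6, and among the 15 with a value 4 did (26.7%). The part of overlap in the missing values was not tested.

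The replicates gave the 5 HOXA members in the same order, and the members that differed most between libraries were HOXC6, HOXD11 and HOXA2. HOXA7, HOXA10 and HOXA11 differed between libraries by factors of 1.05, 1.07 and 1.08, HOXD8 by 1.06 and HOXA9 by 1.13. HOXA2, HOXD11 and HOXC6 differed by 1.26, 1.30 and 1.38, all 3 higher in library a. None of the 8 differed by more than 1.5-fold, which 2.4% of all genes did. Of the 8, 5 were higher in library b, against 46.4% of all genes. The median log2 difference of the 8, library b over library a less the median of all genes, was 0.09, and the values ran from -0.43 for HOXC6 to 0.20 for HOXA9. Across the table low genes varied more, although HOXD8 did not differ more than the high HOXA genes. In the lowest of 5 level classes, which holds HOXD11 and HOXC6, the typical factor (median) between libraries was 1.15, and in the highest, which holds HOXA9, HOXA10 and HOXA11, it was 1.07. Of the genes in the class of HOXC6, 15.9% differed at least as much as HOXC6, and of those in the class of HOXA2, 11.4% at least as much as HOXA2. The largest gap of a measured HOX gene was that of HOXD9, 1.69-fold, and 0.608% of its class differed at least as much.

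**Figure D3:**
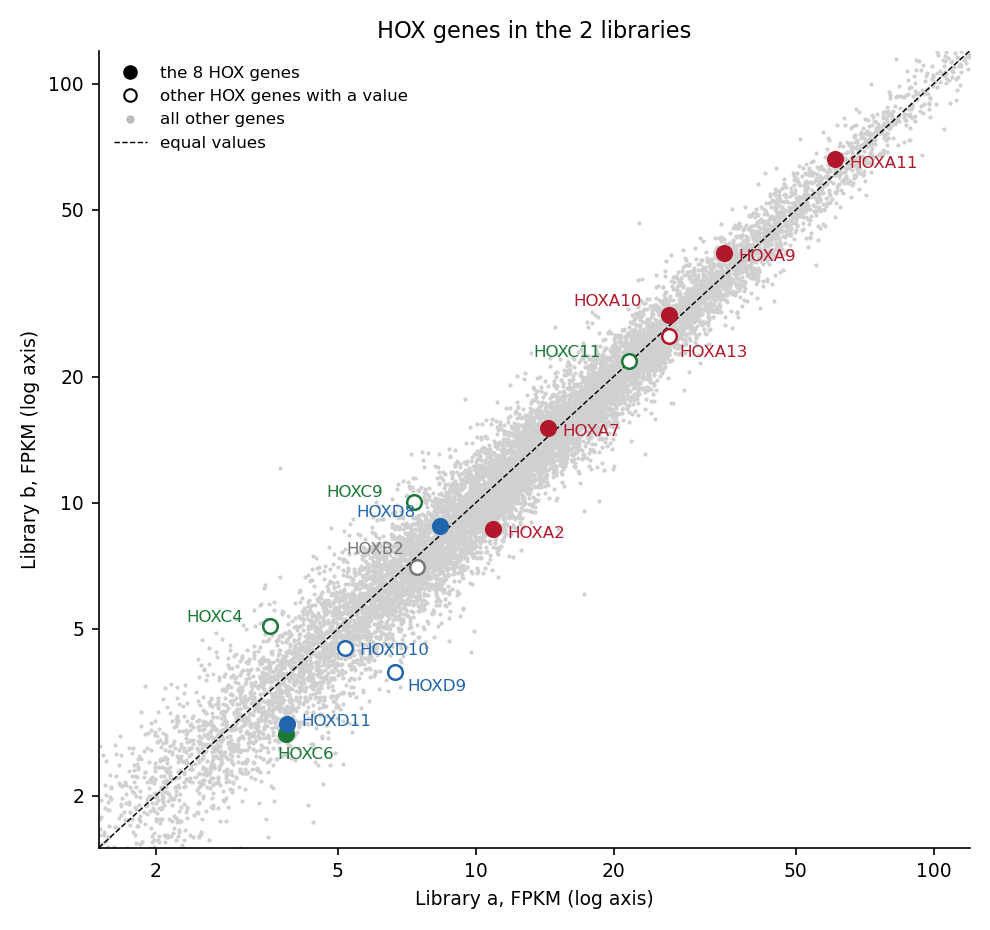
FPKM in library b against library a (both log axes), with the 8 HOX genes filled, the other 7 measured HOX genes open, all other genes in grey and a dashed line of equal values. HOXA7, HOXA9, HOXA10 and HOXA11 lie near the line, whereas HOXC6 (3.85 and 2.80) and HOXD11 (3.87 and 2.97) lie below it and HOXD9 (6.67 and 3.94) lies farthest from it.

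The HOXA members stood above the nearest measured gene on each side of the cluster. On the 3-prime side the nearest protein-coding gene outside the cluster was SKAP2, a signalling adaptor of blood cells, at 4.84 ± 0.127, and SNX10 had no value. On the 5-prime side, EVX1, a homeobox gene linked to the cluster, had no value, and HIBADH, an enzyme of valine breakdown, stood at 6.74 ± 0.332. All HOXA members, HOXA2 and HOXA7 included, were above SKAP2 and HIBADH. HOXA9, HOXA10 and HOXA11, the highest measured HOX genes, were also above TAX1BP1 (20.0 ± 1.65), the next gene beyond HIBADH. CBX3, a heterochromatin protein gene farther out on the 3-prime side, was at 52.1 ± 0.276, below HOXA11 only. At the HOXD cluster the 2 members differed in this respect. The nearest genes on the 3-prime side were MTX2 (12.6 ± 1.82), HNRNPA3 (45.1 ± 2.52) and NFE2L2 (30.7 ± 2.33), and those on the 5-prime side were EVX2, which had no value, LNPK (7.81 ± 0.382) and ATP5MC3 (6.53 ± 0.219). HOXD11 lay below all 5 measured ones, while HOXD8 lay below the 3 on the 3-prime side and above LNPK and ATP5MC3. HOXC6 lay below each of the 5 measured flanking genes of its cluster, which ran from CALCOCO1 (12.4 ± 0.0283) to HNRNPA1 (144 ± 7.35).

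HOX proteins bind DNA with partners of the TALE class of homeodomain proteins, and 8 of 9 genes of the PBX, MEIS and PKNOX families had a value, with a median FPKM of 10.1 against 11.7 for all genes. MEIS1, a partner of HOXA9 in particular, was the highest at 44.8 ± 0.205, above HOXA9 itself, and PBX4 the lowest at 3.49 ± 0.537. PKNOX2 had no value. Polycomb repressive complex 2, which methylates histones over silent HOX genes, had values for 11 of 11 genes (median 17.4, 8 above the median gene), from JARID2 (7.06 ± 0.587) to PHF1 (66.3 ± 0.0495). Polycomb repressive complex 1, only some forms of which bind that mark, had 19 of 20 (median 9.69, 9 above the median gene). Its genes ran from PCGF5 (1.93 ± 0.368) to PCGF1 (61.9 ± 1.35), and PCGF2 had no value. The MLL and trithorax activators that oppose them had 9 of 10 (median 13.4, 5 above the median gene), from the demethylase gene KDM6A (4.42 ± 0.0919) to ASH2L (42.8 ± 2.60).

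CTCF and cohesin, which set boundaries inside the clusters, had values for 8 of 8 genes (median 11.1), from NIPBL (7.98 ± 0.566) to RAD21 (24.0 ± 1.90). The retinoic acid pathway, which switches on 3-prime HOX genes in the embryo, had 10 of 14 (median 12.2), from ALDH1A2 (1.49 ± 0.481) to the retinoic acid binding protein gene CRABP2 (37.7 ± 3.85), and RXRG, CYP26A1, CYP26B1 and CRABP1 had no value. Of the 10 homeobox genes linked to HOX clusters or to their ParaHox sister cluster, EVX1, EVX2, CDX1, CDX2, CDX4, GSX1, GSX2, PDX1, MEOX1 and MEOX2, none had a value. HOXA11 exceeded each measured PBX, MEIS and PKNOX gene and each measured gene of the MLL, cohesin and retinoic acid lists, and its level was near those of PHF1 and PCGF1.

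**Figure D4:**
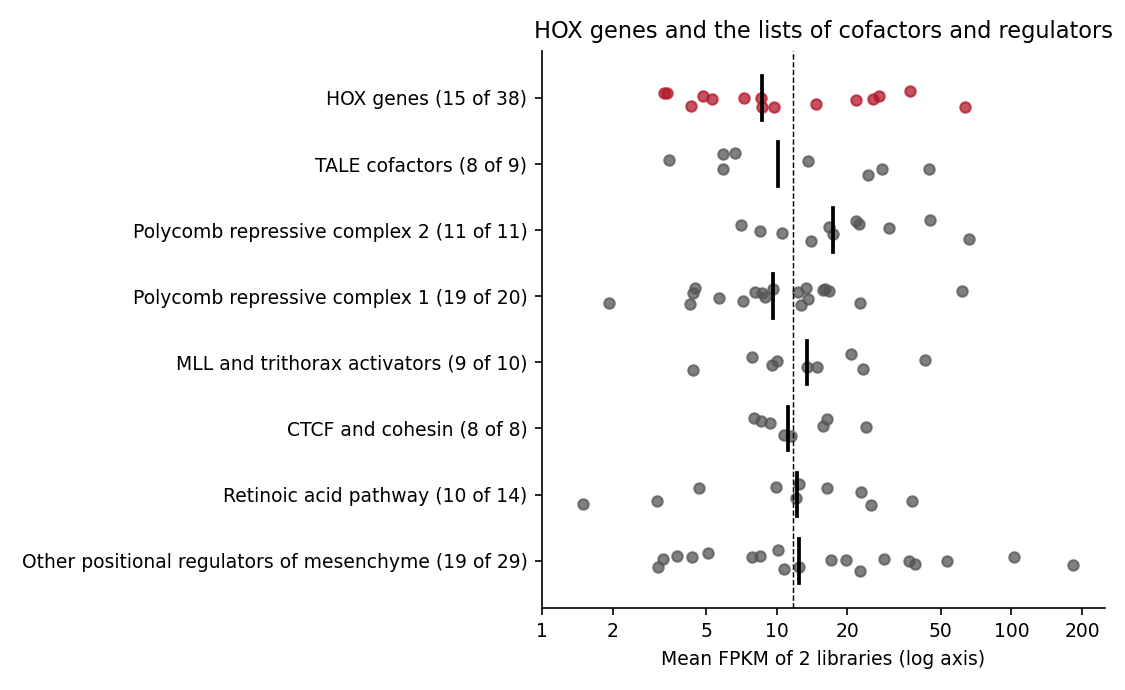
Mean FPKM over the 2 libraries (log axis) of each measured gene in the HOX family (red) and in 7 lists of partners and regulators (grey), with a black bar for the median, a dashed line for the median gene (11.7) and the measured number of each list in brackets. The HOX genes spread from 3.33 to 63.5 around a median of 8.69, and their median is the lowest of the lists shown.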

How the data were processed

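The deposited table gives FPKM per Ensembl gene identifier, made by the authors, in 2 columns for the 2 BJ libraries, whose names show the group but no replicate number. The submitters' processing notes name Bowtie2, HTSeq and hg19, with no version. Gene length, read total, strand use and filter: not given in the sources used here. Symbols from an Ensembl name table matched 12202 of 12353 identifiers. RefSeq (GRCh38) gave gene order, overlaps and upstream sequences only.

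The mean and SD of each gene were taken on FPKM, as were multiples of the median gene and factors between libraries. Ratios between genes, contrasts between lists and log2 differences between libraries were taken on log2(FPKM + 0.1). All were computed with Python 3.11.15 and pandas 2.3.3. The calculation of differences between libraries was checked on simulated data. With 1 group no condition could be compared, and the text prints no p-value; the smallest that an exact sign-flip test could reach with 2 libraries is p = 0.5. The members, lists and rules were chosen with earlier results of these data known. Genes named are the members, the other HOX genes, the highest and lowest of each list, the 3 protein-coding genes on each side of a cluster, and the genes without a value (some genes these rules select are not reported here). The alternatives were another pseudocount, a minimum FPKM, each library left out, quantile normalization and list means.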

Additional observations from a re-analysis of the deposited data

How the results depend on the processing

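No paired analysis was possible because the series has 1 group. Across the 28 alternative values computed, none of the 3 contrasts changed direction. The median level of the 8 members on the log2 scale, 3.59, moved by more than the spread between libraries to 3.70 with a pseudocount of 1 and to 3.73 with the mean over members. The HOXA contrast with HOXC6, HOXD8 and HOXD11, 2.97, moved to 2.41 with means over members. With 1 library left out it ran from 2.74 to 3.20, the contrast within the HOXA cluster from 1.47 to 1.78, HOXA11 over HOXD11 from 3.94 to 4.43, and the median level from 3.54 to 3.66. The median difference between libraries, 0.09, was -0.06 with means, which is within the spread of the members. A minimum FPKM of 1 left the number of HOX genes with a value at 15. It could change neither this number nor the 3 contrasts, since the lowest value of a measured HOX gene was 2.80. The unknown depth and the unknown gene lengths limit comparisons between low genes such as HOXC6 and HOXD11.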

Other observations

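Other regulators that mark place in mesenchyme had values for 19 of 29 genes, with a median FPKM of 12.5 and 10 above the median gene. TBX3, a T-box factor of limb and genital development, was the highest, with 182.43 and 184.89 in the libraries (184 ± 1.74), above every HOX gene. OSR1 was the lowest (3.13 ± 0.905). Chosen after their values were seen, the limb factor genes TBX5 (36.7 ± 4.65) and PITX1 (8.47 ± 1.19), which mark forelimb and hindlimb, both had values, and TBX4 had none. TBX5 stood near HOXA9 (37.1 ± 3.30). EN1, SHOX2, EMX2, LHX2, HAND2, PRRX2, MSX2, DLX5 and SIX2 also had no value.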
